A study of Caenorhabditis elegans with 2 samples.

Results

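The neuropeptide genes of Caenorhabditis elegans were taken as the protein-coding genes of the Ensembl annotation of WBcel235 whose name is flp-, nlp- or ins- followed by a number. This gave 140 of 19973 genes, of which 31 were flp, 71 nlp and 38 ins genes. None carried a kept binding region of the zinc finger protein Y67H2A.10 at its promoter, against 2.31% of all protein-coding genes. The Wilson interval of that count of 0 reached 2.67% and so took in the share of all genes. A candidate peak was carried by 7 (5.00%), all below the threshold. The share of all protein-coding genes with a candidate peak, kept ones included, was 18.9%. The measurements were chromatin immunoprecipitation with sequencing (ChIP-seq) of whole young adults at 63 hours, grown from L1 larvae starved after bleaching, of strain RW12295, in which CRISPR inserted tags into Y67H2A.10 (allele st12295[Y67H2A.10::TY1::EGFP::3xFLAG], chromosome IV). An antibody against GFP precipitated the fusion protein from sonicated chromatin of 200 to 800 bp, in 2 biological replicates that form the only group. Whole animals were used, so neurons were not separated from other cells, and samples of untagged worms were not analysed here. With 1 group there is no contrast between conditions and no p-value, and the counts of the neuropeptide genes are set beside those of all protein-coding genes measured in the same way.

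Neuropeptides are short signalling peptides cut from longer precursors in the secretory pathway, packed into dense-core vesicles and released to act mostly on G protein-coupled receptors. In this worm the flp genes encode FMRFamide-like peptides, which end in arginine and phenylalanine amide, the ins genes encode insulin-like peptides that act on the receptor DAF-2, and the nlp genes encode the remaining, unrelated peptide families. Most are made in small sets of neurons, and some nlp genes are made in the epidermis as antimicrobial peptides or in the intestine. The RefSeq product names bore out the gene names for most members. Of the 31 flp genes, 12 were named FMRF-like peptide and 17 by a peptide ending in RF-amide, 61 of the 71 nlp genes had neuropeptide in the name, and 37 of the 38 ins genes had insulin.

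The deposited peak lists hold a signal for each peak, the peak caller's measure of height, and no read counts, so depth is unknown. Peaks were filtered by IDR, the irreproducible discovery rate. In the comparison of the replicates it estimates how many of the peaks ranked at least as high fail to recur in the other replicate. An IDR quoted from a single replicate's list or the pooled list belongs to that list and is not read as recurrence between the replicates. The conservative list was drawn from peaks of the comparison of the replicates at 0.01 or less. Its 709 records merged to 666 regions, called kept here. All 22544 candidate records of the same comparison of the replicates merged to 18521 ranked regions. The highest signal was 1788 among ranked regions and 944 among kept regions, and why the highest ranked region was not kept was not tested. Replicate 1 had 24472 ranked regions of its own and replicate 2 had 31396. The promoter window of a gene covered 500 bp before and 100 bp after the 5′ end of each of its transcripts, and a region was assigned to the gene if its summit, the highest point, fell there.

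Of the 7 neuropeptide genes with a candidate peak in the window, the 200 bases around the summit are given for 5, to show what these peaks cover. Beside them stands a kept region near the neuropeptide gene ins-17. They are given 5′ to 3′ on the plus strand of the RefSeq sequence of WBcel235 in lower case, with each CG dinucleotide in capitals. Those of ins-25 and nlp-40 are not shown.
nlp-24, V:11616299-11616498: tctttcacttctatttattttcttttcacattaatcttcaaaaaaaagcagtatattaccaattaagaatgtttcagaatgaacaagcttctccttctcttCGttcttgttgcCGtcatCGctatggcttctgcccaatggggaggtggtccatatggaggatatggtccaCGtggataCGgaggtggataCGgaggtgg
nlp-17, IV:13505863-13506062: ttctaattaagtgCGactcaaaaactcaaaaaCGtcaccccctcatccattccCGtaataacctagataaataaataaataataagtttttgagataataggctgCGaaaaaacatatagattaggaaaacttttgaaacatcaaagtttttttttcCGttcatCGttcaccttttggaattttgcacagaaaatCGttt
flp-23, III:8650356-8650555: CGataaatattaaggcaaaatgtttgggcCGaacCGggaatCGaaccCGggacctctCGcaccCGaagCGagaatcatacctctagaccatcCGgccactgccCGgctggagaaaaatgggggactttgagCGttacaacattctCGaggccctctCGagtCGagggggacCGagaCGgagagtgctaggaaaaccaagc
nlp-76, X:12663958-12664157: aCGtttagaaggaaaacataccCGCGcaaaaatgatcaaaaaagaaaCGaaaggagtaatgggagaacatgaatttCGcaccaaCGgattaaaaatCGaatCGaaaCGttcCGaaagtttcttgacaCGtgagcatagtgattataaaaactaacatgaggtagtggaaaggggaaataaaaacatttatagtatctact
nlp-69, V:20095153-20095352: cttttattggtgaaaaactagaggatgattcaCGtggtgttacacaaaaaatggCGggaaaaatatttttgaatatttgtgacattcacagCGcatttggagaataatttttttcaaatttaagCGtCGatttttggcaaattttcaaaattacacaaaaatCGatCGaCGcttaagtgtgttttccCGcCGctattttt
kept region near ins-17, III:4475553-4475752: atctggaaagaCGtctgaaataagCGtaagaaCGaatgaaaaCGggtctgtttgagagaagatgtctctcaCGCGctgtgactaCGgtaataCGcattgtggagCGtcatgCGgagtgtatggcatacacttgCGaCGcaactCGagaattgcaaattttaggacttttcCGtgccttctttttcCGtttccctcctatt
Of the 5 neuropeptide sequences, all but that of flp-23 had a lower GC content than the kept regions around ins-13, nlp-76, ins-17 and flp-20. GC content was 41.5% at nlp-24, 31.0% at nlp-17, 35.5% at nlp-76 and 33.0% at nlp-69, and 55.5% at flp-23, beside the 5′ end of the tRNA gene named below. It was 44.0 to 47.5% in those 4 kept regions, with 45.5% near ins-17. The number of CG dinucleotides was 6 at nlp-24, 7 at nlp-17, 11 at nlp-76, 10 at nlp-69 and 16 at flp-23, against 15 in the kept region near ins-17, 13 near ins-13, 11 near nlp-76 and 9 near flp-20. These counts overlap.

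No neuropeptide gene carried a kept summit in a promoter window. The count was 0 of 140 (95% Wilson interval 0 to 2.67%), against 462 of 19973 protein-coding genes, a background of 2.31%, which lies inside that interval. The same count of 0 held for the 31 flp genes (upper bound 11.0%), the 71 nlp genes (upper bound 5.13%) and the 38 ins genes (upper bound 9.18%). It also held in the pooled list, in which 2.30% of all protein-coding genes carried a region, in the list of replicate 1 (1.22% of all) and in the list of replicate 2 (1.51% of all). Nor did a kept summit lie inside the transcribed span of any neuropeptide gene, against 169 (0.846%) of all protein-coding genes, and the median span was 888 bp in neuropeptide genes and 2027 bp in all protein-coding genes. Intervals cover counting error only and treat genes as independent, though neighbouring genes can share a window.

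Summits of the ranked lists, which hold candidate peaks at any IDR, were counted next. In the ranked list of the comparison of the replicates, 7 of 140 neuropeptide genes carried such a summit (5.00%, 95% Wilson interval 2.44 to 9.96), against 3782 of 19973 protein-coding genes, a background of 18.9% (interval 18.4 to 19.5). The 3782 take in genes with a kept summit, and all summits of the 7 were below the threshold. The 7 were nlp-24, ins-25, nlp-17, flp-23, nlp-76, nlp-40 and nlp-69, that is 5 of 71 nlp genes (7.04%), 1 of 38 ins genes (2.63%) and 1 of 31 flp genes (3.23%). The interval of each family also lay below that background. In the list of replicate 1 alone, 18 neuropeptide genes did so (12.9%, interval 8.29 to 19.4, background 22.8%), and in that of replicate 2 alone also 18 (12.9%, background 27.8%). The interval of the neuropeptide genes lay below that of all genes in each of these 3 ranked lists. Single families did not all follow. In replicate 1, 8 of 38 ins genes had a summit (21.1%, interval 11.1 to 36.3), 7 of 71 nlp genes (9.86%) and 3 of 31 flp genes (9.68%, 3.35 to 24.9). In replicate 2 it was 5 of 38 ins genes (13.2%, 5.75 to 27.3), 11 of 71 nlp genes (15.5%, 8.88 to 25.7) and 2 of 31 flp genes (6.45%, 1.79 to 20.7). The share of ins genes in replicate 1 was thus near the background. In either replicate, 12 of 38 ins genes had a summit (31.6%, 19.1 to 47.5), against 38.0% of all genes. The ordering of the lists is a description of the lists and was not tested.

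**Figure D1:**
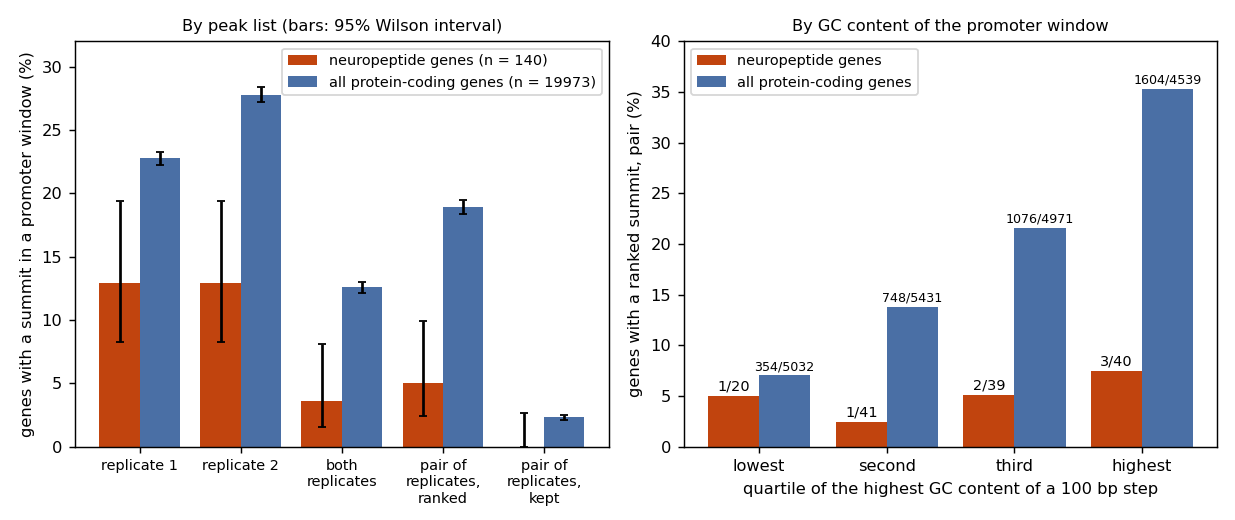
Share of genes (%) with a peak summit in a promoter window, for neuropeptide genes (orange, n = 140) and all protein-coding genes (blue, n = 19973). The left panel gives the ranked list of each replicate, genes in both of those lists, and the ranked and kept lists of the comparison of the replicates, with 95% Wilson intervals as error bars; the right panel splits the genes by quartile of the highest GC content in the window, with the counts above the bars, and the neuropeptide bar reaches 7.5% in the highest quartile and that of all genes 35.3%.

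None of these candidate peaks came near the IDR threshold of 0.01. The 7 genes held 8 ranked regions with a median signal of 35.2 (range 14.4 to 52.7) and a median percentile of 31.5 among all ranked regions, against a median signal of 42.8 and percentile 59.4 for the 3621 ranked regions in promoter windows of any protein-coding gene. None of the 8 had an IDR at or below 0.05, against 482 of the 3621. Of the 8, 2 exceeded the median signal of promoter regions of all genes, that of nlp-24 at 52.7 and that of ins-25 at 44.2. Kept regions, which were filtered by IDR and not by signal, had a median signal of 105 and a lowest of 54.1. The lowest IDR among the 8 was 0.171, at nlp-24, and the next was 0.594, at flp-23.

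The highest of these peaks lay at nlp-24 (WBGene00003762, V:11616376-11616828, plus strand), a gene of feeding-related peptides. Its summit stood 23 bp downstream of the 5′ end, with a signal of 52.7 and percentile 82.7 in the comparison of the replicates, 31.3 (percentile 87.9) in replicate 1 and 26.0 (percentile 81.9) in replicate 2. It ranked above percentile 80 in both replicates' own lists, and no other protein-coding 5′ end lay nearer than 1874 bp. ins-25 (WBGene00002108, I:14020361-14021312), which encodes an insulin-like peptide, had a summit 79 bp upstream with a signal of 44.2 (percentile 63.9, IDR 0.729). Its replicates differed in rank, with 29.3 at percentile 83.3 in replicate 1 and 16.7 at percentile 25.7 in replicate 2, at nearly the same place, 65 and 67 bp upstream.

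For nlp-17 and flp-23 the summit stood nearer to another gene. That of nlp-17 (WBGene00003755, IV:13505270-13505762, minus strand) was 201 bp upstream, with a signal of 40.4 (percentile 50.8, IDR 0.873), 19.9 in replicate 1 and 18.8 in replicate 2. It lay inside seld-1, 116 bp from the 5′ end of that gene, which encodes a selenophosphate synthetase. nlp-17 was 1 of 3 neuropeptide genes with the 5′ end of another protein-coding gene in a window, the others being nlp-4 with exos-3 and nlp-33 with T19C4.24. At flp-23 (WBGene00017693, III:8650767-8652194, plus strand) the summit was 311 bp upstream, with a signal of 37.8 (percentile 40.9, IDR 0.594). It stood 4 bp from the 5′ end of a tRNA gene, WBGene00023002. Replicate 1 had a summit at the same position with a signal of 24.5, and replicate 2 had none in the window.

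The remaining 3 genes had peaks of lower rank. nlp-76 (WBGene00045386, X:12662478-12663903, minus strand) had a summit 155 bp upstream with a signal of 32.6 (percentile 22.2, IDR 0.741), inside the neighbouring nhr-17, and neither replicate's own list had a summit in its window. nlp-40 (WBGene00022276, I:11495-16837, plus strand) encodes peptides that the intestine releases to trigger the expulsion step of the defecation cycle. It held 2 ranked summits, 342 bp upstream and 43 bp downstream of a 5′ end, with signals of 28.0 and 19.4 and an IDR of 0.873 each. Its replicate summits were far apart, 437 bp upstream with a signal of 18.1 in replicate 1 and 119 bp upstream with a signal of 23.3 in replicate 2. nlp-69 (WBGene00013752, V:20094253-20095008, minus strand) had the lowest, with a signal of 14.4 at percentile 1.14, 245 bp upstream and inside sec-23. Its replicate summits, too, lay at different places, 476 bp upstream with a signal of 17.9 in replicate 1 and 141 bp upstream with a signal of 19.8 in replicate 2.

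Over whole promoter windows, GC content in neuropeptide genes was near that of all genes, with a median of 36.6% against 34.8%. The highest GC content of any 100 bp step in the window had a median of 50.5% in neuropeptide genes (quartiles 47.0 and 55.0) and 49.0% in all protein-coding genes (quartiles 44.0 and 54.0), and it was 56.0% in the 462 genes with a kept summit. Quartiles of this measure were set over all genes at 44.0, 49.0 and 54.0%. In each, the share of neuropeptide genes with a ranked summit was below that of all genes, though close to it in the lowest quartile. Each share rests on 1 to 3 neuropeptide genes. The shares were 1 of 20 (5.00%) against 7.03% in the lowest quartile, 1 of 41 (2.44%) against 13.8% in the second, 2 of 39 (5.13%) against 21.6% in the third, and 3 of 40 (7.5%) against 35.3% in the highest. The highest values belonged to nlp-40 at 70.0% and to flp-14 and flp-16 at 68.0% each. flp-14 and flp-16 had no ranked summit in the comparison of the replicates, and flp-14 had 1 of signal 19.6 in replicate 1.

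The word ACGCGC is frequent at kept regions in these data. It was searched on both strands as ACGCGC and GCGCGT, which share the letters CGCG. It occurred in a window of 9 of 140 neuropeptide genes (6.43%, 95% Wilson interval 3.42 to 11.8), against 12.1% of all protein-coding genes and 35.1% of those with a kept summit. The 9 were flp-2, flp-3, flp-34, ins-3, ins-37, nlp-40, nlp-52, nlp-68 and nlp-101. Of them nlp-40 alone had a ranked summit in the comparison of the replicates, against 35.5% of all genes with the word. A match is a description of the letters and not a site.

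Few neuropeptide genes shared a promoter window with another protein-coding gene. The 5′ ends of non-coding genes, such as the tRNA gene near flp-23, were not counted. The 5′ end of another protein-coding gene lay in a window of 3 of 140 (2.14%), against 11.6% of all protein-coding genes and 35.5% of those with a kept summit. A single 5′ end was annotated for 111 neuropeptide genes (79.3%), against 72.6% of all genes, and the median window length was 601 bp in both. Among genes with no other such 5′ end in the window, 6 of 137 neuropeptide genes had a ranked summit (4.38%), against 17.2% of all 17663. By chromosome, 34 neuropeptide genes (24.3%) were on X, where 13.7% of all genes lie. On X, 1 of 34 had a ranked summit (2.94%), against 13.9% of all genes there. On II it was 0 of 28 against 17.7%, on V 2 of 23 (8.70%) against 15.4%, on IV 1 of 19 (5.26%) against 20.3%, on III 1 of 17 (5.88%) against 24.5% and on I 2 of 19 (10.5%) against 24.7%.

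The 2 replicates shared few of these neuropeptide genes. Of the 18 with a summit in the ranked list of replicate 1 and the 18 in that of replicate 2, 5 were the same (27.8% of either), nlp-24, ins-25, nlp-17, nlp-40 and nlp-69. Genes were matched here and not peaks, and the replicate summits of nlp-40 and of nlp-69 lay at different places in the window. Among all protein-coding genes, 2507 were in both lists, which is 55.1% of the 4546 of replicate 1 and 45.2% of the 5552 of replicate 2. Genes in both lists made up 3.57% of neuropeptide genes (interval 1.53 to 8.09), against a background of 12.6%, and genes in either list 22.1%, against 38.0%. The 5 shared genes were all among the 7 of the comparison of the replicates. No gene had a summit in both replicates without one there.

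**Figure D2:**
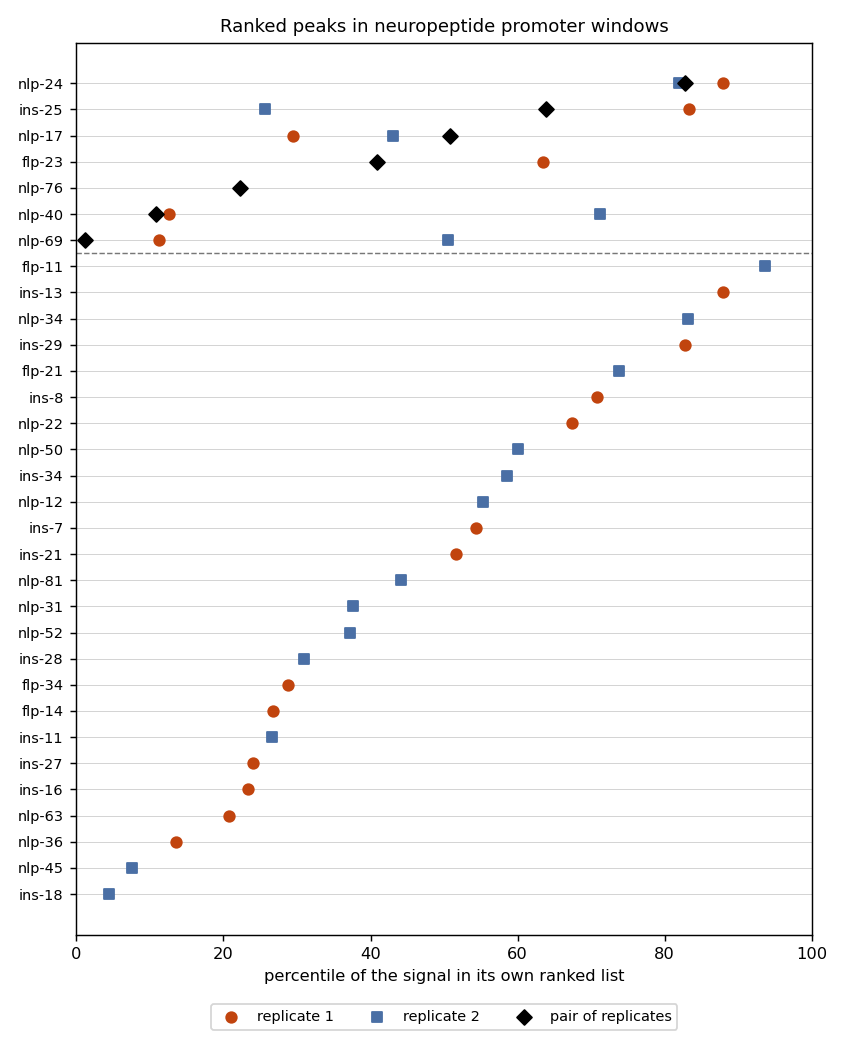
Percentile of the signal within its own ranked list (horizontal axis) for every neuropeptide gene with a ranked summit in a promoter window in replicate 1 (circles), replicate 2 (squares) or the comparison of the replicates (diamonds), taking the highest where a gene has several. The 7 genes above the dashed line have a summit in the comparison of the replicates, led by nlp-24 at percentile 82.7, and every gene below it has a summit in 1 replicate alone.

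Among the 13 genes seen in replicate 2 alone, flp-11, whose peptides are released by the sleep-promoting neuron RIS, had the highest signal, 32.5 (percentile 93.6, IDR 0.313), 86 bp downstream of a 5′ end. In the comparison of the replicates, flp-11 had a summit just past the window edge, 117 bp downstream (signal 38.3, percentile 42.8, IDR 0.756). nlp-34 of the epidermal antimicrobial peptide genes had 26.4 (percentile 83.2), and flp-21, which encodes a ligand of the receptor NPR-1, had 23.8 (percentile 73.8). nlp-12, a gene of cholecystokinin-like peptides, had 20.5 (percentile 55.3). None of these 4 had a summit in its window in replicate 1, and the other 9 had signals of 14.0 to 21.3. Among the 13 seen in replicate 1 alone, ins-13 had 31.3 (percentile 87.9), ins-29 had 29.0 (percentile 82.7) and ins-8 had 25.9 (percentile 70.8). nlp-22, whose peptide promotes developmentally timed sleep, had 25.2 (percentile 67.4), and ins-7, an insulin-like agonist of DAF-2, had 23.0 (percentile 54.4). The other 8 of these had signals of 18.2 to 24.5. In the pooled ranked list, ins-8 (signal 45.8), ins-13 (44.9), nlp-13 (37.6) and flp-25 (36.6) had a summit that the comparison of the replicates did not hold. Each had an IDR of 0.598 or above, and that of nlp-13 stood 73 bp from the 5′ end of the piRNA gene 21ur-15336. In the pooled list, flp-23, nlp-40 and nlp-69 had none. In all, 34 of 140 had a summit in at least 1 of the 4 ranked lists, and 106 had none in any. That count was not made for all genes. For the lists of the 2 replicates, the share with a summit in either was 22.1%, against 38.0% of all genes.

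Many of these genes lie in clusters. The cluster of 6 antimicrobial peptide genes nlp-34, nlp-31, nlp-30, nlp-29, nlp-28 and nlp-27 (V:3978825-3989770) had no summit between its ends in the comparison of the replicates, 1 in replicate 1 and 3 in replicate 2. The 6 insulin-like genes ins-2, ins-3, ins-4, ins-5, ins-6 and ins-20 (II:5988524-6011321) had 1, outside their windows. The 7 genes ins-28, ins-29, ins-25, ins-27, ins-24, ins-30 and ins-26 (I:14012369-14037777) spanned 6 ranked summits, of which that of ins-25 lay in a window. None of these clusters held a kept summit, nor did the clusters with fewer members. Kept summits are sparse, with the nearest at a median of 60273 bp over all protein-coding genes, and each cluster is shorter than that. Summits in stretches of like length elsewhere were not counted, so these counts have no background.

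Distances to the nearest kept summit were broadly like those of all genes. The median distance from a 5′ end to the nearest was 68130 bp in neuropeptide genes (quartiles 26656 and 117972 bp), against 60273 bp in all protein-coding genes (quartiles 22640 and 133555 bp). Within 10 kb were 14 (10.0%), against 13.4% of all genes, and 42 of 140 neuropeptide genes had none within 100000 bp, against 6696 of 19973 protein-coding genes (33.5%). The gene farthest from one was nlp-70, at 878560 bp. The nearest ranked summit stood at a median of 2022 bp (quartiles 876 and 5788 bp), against 1635 bp in all genes (quartiles 477 and 3983 bp). Within 1000 bp of it were 43 (30.7%), against 38.4% of all genes, and within 10 kb 128 (91.4%), against 94.7%.

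**Figure D3:**
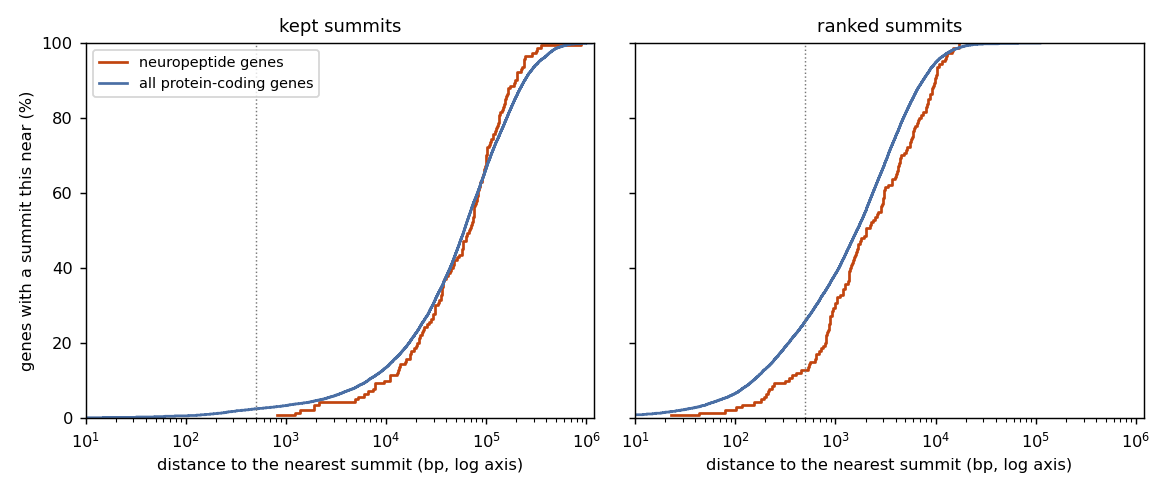
Cumulative share of genes (%) against the distance from a 5′ end to the nearest kept summit (left) and ranked summit (right), on a log axis in bp, for neuropeptide genes (orange) and all protein-coding genes (blue); the dotted line marks 500 bp. The nearest kept summit of any neuropeptide gene is 809 bp away, and the median distance to a ranked summit is 2022 bp for neuropeptide genes and 1635 bp for all genes.

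The 5 kept summits nearest to neuropeptide genes were at other annotated features in 4 cases. The summit 809 bp downstream of the 5′ end of nlp-4 (I:10517098-10517393, signal 258, 119 in replicate 1 and 136 in replicate 2) stood 96 bp upstream of the snoRNA gene F59C6.15. That 1239 bp downstream of ins-13 (II:5543477-5543974, signal 133, 79.6 in replicate 1 and 57.8 in replicate 2) stood 27 bp downstream of the 5′ end of the snRNA gene sls-2.2. That 1398 bp upstream of nlp-76 (X:12665153-12665448, 47.9 in replicate 1 and 54.1 in replicate 2) stood 22 bp downstream of the 5′ end of the non-coding gene C02B4.8. These 3 summits are nearer to a gene for a non-coding RNA than to the neuropeptide gene. That 1919 bp downstream of ins-17 (III:4475505-4475800, signal 172, 92.4 in replicate 1 and 73.5 in replicate 2) stood 4 bp from the 5′ end of the non-coding gene F56F3.11 and 265 bp upstream of rps-1, which encodes a protein of the small ribosomal subunit. The sequence of that region, printed above, holds the word ACGCGC, and the 200 bases around the kept summits near ins-13, nlp-76 and flp-20 do not. The summit 1917 bp downstream of a 5′ end of nlp-40 (I:16872-17167, signal 111, 75.2 in replicate 1 and 33.5 in replicate 2) had no nearer 5′ end than that of nlp-40 and lay beyond the 3′ end of the gene at 16837. Those near nlp-4, ins-13 and ins-17 were kept in all 4 lists, that near nlp-76 not in the list of replicate 1 and that near nlp-40 not in the list of replicate 2.

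**Figure D4:**
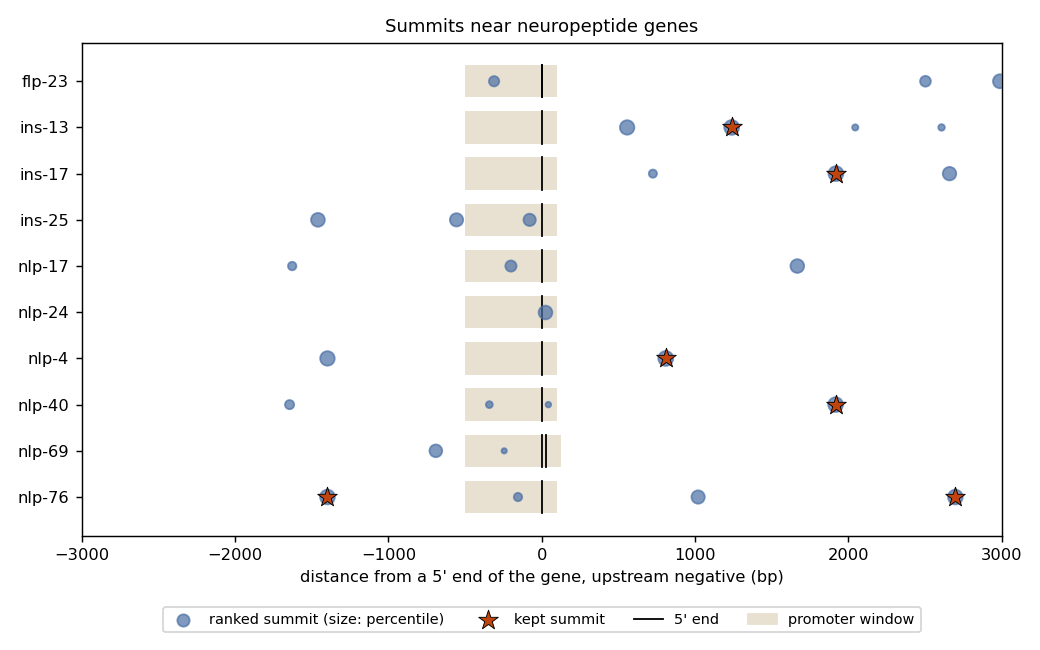
Summits of the comparison of the replicates within 3000 bp of a 5′ end (vertical line, upstream negative, in bp) of the 7 neuropeptide genes with a ranked summit in a promoter window (shaded) and of the 5 nearest to a kept summit, 10 genes in all. Blue circles are ranked summits, larger at higher percentile, and orange stars are kept summits, all of which lie outside the windows.

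Candidate peaks just outside the windows were examined next. Within 2 kb of a 5′ end, in or out of a window, 68 of 140 neuropeptide genes had a ranked summit (48.6%), against 55.1% of all protein-coding genes. Summits outside the window were counted for neuropeptide genes only, and 66 had one within 2 kb. The nearest such summit had a median percentile of 46.3. That nearest summit reached percentile 90 at 2 genes, nlp-4 with the kept region already named and ins-13 with a signal of 68.6 (percentile 93.7, IDR 0.465) 557 bp downstream. The kept regions near nlp-76, nlp-40 and ins-17 also lie within 2 kb, but another outside summit was nearer to each gene. ins-29 had a summit just past the window edge, 102 bp downstream, with a signal of 53.9 (percentile 84.4, IDR 0.208). With a window reaching 1000 bp upstream, 21 neuropeptide genes had a ranked summit (15.0%, against 27.3% of all genes).

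Genes of the wider peptide pathway carried no kept summit. The counts were 0 of 107 receptor genes (interval to 3.47%), 0 of 20 genes for processing and release (to 16.1%) and 0 of 10 insulin signalling genes (to 27.8%), and each interval takes in the 2.31% of all genes. In the ranked list of the comparison of the replicates, of 107 receptor genes, 5 had a ranked summit (4.67%, interval 2.01 to 10.5). They were fshr-1, npr-23, npr-10, dmsr-14 and npr-37, with signals of 21.4 to 37.3. Of the 20 genes for processing and release, 6 did (interval 14.5 to 51.9%). They were unc-108, a Rab2 GTPase of dense-core vesicle maturation (signal 76.4, IDR 0.0301), unc-31, which acts in vesicle release (54.4), pgal-1 and pghm-1, enzymes of peptide amidation (47.9 and 36.7), the convertase gene aex-5 (44.1) and cccp-1 (42.7). Of 10 insulin signalling genes, 3 did, the transcription factor gene daf-16 (53.6, IDR 0.163), the receptor gene daf-2 (30.3) and the kinase gene akt-1 (15.0). In this list the intervals of processing and release and of insulin signalling (10.8 to 60.3%) take in the background of 18.9%, and that of the receptors lies below it. The order depended on the list. Processing and release had 9 of 20 in the pooled list (interval 25.8 to 65.8%, background 20.0%) and 10 of 20 in replicate 2 (29.9 to 70.1%, background 27.8%), and its interval took in the background in replicate 1 (5 of 20). The receptors had 20 of 107 in replicate 1 (12.4 to 27.1%, background 22.8%) and 17 of 107 in replicate 2 (10.2 to 24.0%). The 8 peptide genes under other names, such as daf-28 and pdf-1, had no kept summit and none in the ranked list of the comparison of the replicates, but 1 of 8 had a ranked summit in the pooled list and 2 of 8 in replicate 2.

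Other families were counted in the same way. Nuclear hormone receptor genes had a ranked summit in 44 of 269 cases (16.4%, interval 12.4 to 21.2%) and cuticle collagen genes in 16 of 156 (10.3%), where the interval of the collagens, like that of the neuropeptide genes, lies below the background of 18.9% and that of the nuclear hormone receptors takes it in. Each family had 1 kept summit, at nhr-47 (0.372%) and col-71 (0.641%), against 2.31% of all genes. Cytosolic ribosomal protein genes had a ranked summit in 61 of 81 (75.3%) and a kept one in 26 (32.1%). Their median highest GC content was 56.0%. That of nuclear hormone receptor genes was 48.0% and that of peptide receptor genes 47.0%, both below the 50.5% of the neuropeptide genes. The part that GC content, gene spacing and chromosome play in these differences was not tested beyond the shares within each class given above.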

How the data were processed

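ChIP-seq peak lists on the ce11 build, which is the assembly WBcel235, were analysed for 2 biological replicates. The authors called peaks against a control, for each replicate and for both pooled, per the deposited text records. No aligner or peak caller is named in them. Signal is the deposited height of a peak, on an unnamed scale. IDR was computed here from the −log10 values that the authors deposited with ranked peaks. By those records, 1 more file of unnamed content went into the thresholded lists alone. Of the series-wide ranked lists, 16 columns were left unused.

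Overlapping records were merged to 1 region with the summit, signal and IDR of the record with the highest signal, and percentiles are among the merged regions of a list. Genes came from Ensembl release 115 and sequences from RefSeq, for genes on the 6 nuclear chromosomes. Quartiles of GC content used the highest of all 100 bp steps in the windows of a gene. Signals were ranked only within a list. Wilson intervals were made with scipy 1.17.1. The counting was tested on simulated peaks.

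Alternatives were other windows, lists, thresholds, unmerged records, any overlap and GC steps. The members and lists were chosen with earlier results of these data known, as was the word ACGCGC. CG dinucleotides, classes of GC content and the spacing of genes were examined after the data were seen. The named genes were every member with a kept summit or, failing that, with a ranked summit in the comparison of the replicates, those with a summit in both replicates but not there (there were 0), the 5 nearest to a kept summit, and up to 4 genes of each pathway list with a kept summit. Those of single replicates, of the pooled list, of clusters and of pathway lists below the threshold were named after their values were seen.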

Additional observations from a re-analysis of the deposited data

How the results depend on the processing

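No kept summit lay in a promoter window of a neuropeptide gene under 10 of 12 alternatives. With windows from 2000 bp upstream the count was 1 (nlp-76, 0.714%, against 3.90% of all genes). At an IDR of 0.2, which was chosen after seeing the data, it was 1 (nlp-24, 0.714%, against 4.45% of all genes). The count of 7 neuropeptide genes with a ranked summit was 18 without either replicate (range 18 to 18, 12.9%). The share of all genes was 27.8% without replicate 1 and 22.8% without replicate 2. With windows from 200, 1000 and 2000 bp upstream the count was 4, 21 and 32 (2.86, 15.0 and 22.9%, against 10.6, 27.3 and 39.2%). With any overlap of the peak it was 18 (12.9%, against 25.2%). Under all 9 alternatives the share was below that of all protein-coding genes. The median distance to the nearest kept summit ranged from 126744 to 139236 bp without 1 replicate. The median distance to the nearest ranked summit ranged from 1378 to 1504 bp without 1 replicate, was 2322 bp in the pooled list and was 2232 bp with peptide genes under other names added. Both medians were above those of all genes in each setting. ACGCGC occurred in 2.14% of neuropeptide genes with windows from 250 bp upstream, against 7.16% of all genes. The median highest GC content was 58.0% in 50 bp steps and 43.8% in 200 bp steps, against 56.0 and 42.0% in all genes. Longer windows and shorter steps move these values by construction; the cause of the others was not tested. No paired analysis was possible because the replicates form 1 group. The lists hold no depth, so a weak peak that was not called cannot be told apart from none.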
